A study of Rattus norvegicus with 26 samples.

Results

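The microRNA miR-378 is cut from a hairpin whose arms both leave a mature strand, and the array measured both: rno-miR-378, the main strand, and rno-miR-378*, the strand of the opposite arm. These 2 miRNAs, of 677 on the array, were chosen by name, and the choice was made with their measured levels, their time course and the difference between the arms in these 26 arrays in view, so those values are given as a description without a test. Each array held the liver of 1 male Sprague-Dawley rat. Partial hepatectomy (PH) removed the left lateral lobe (1/3 PH) or the larger classical portion of the liver (2/3 PH), and the right lobes were taken 6, 12, 24 or 36 hours later. Of the 9 groups, 1/3 PH at 6 hours had 2 rats and every other group 3, the normal livers without PH included, although the labels also call the latter sham. The labels name no other treatment and no age, and livers were taken in the morning hours. For some arrays of the 12, 24 and 36 hour groups 1 label field gave a time up to 2 hours later than the others, and the grouping followed the shared time.

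A mature miRNA guides the silencing complex to messenger RNAs that pair with its seed, the short stretch near its 5′ end. miR-378 lies within Ppargc1b, the gene of the coactivator PGC-1β, which drives mitochondrial and lipid metabolism, and both strands are known from work on energy balance: miR-378 has been linked to carnitine acetyltransferase, and the star strand to the Mediator subunit MED13, the nuclear receptor ERRγ and GABPA. In liver the main strand is known for acting on the insulin signalling kinase subunit p110α. Partial hepatectomy makes quiescent hepatocytes re-enter the cell cycle while they go on serving metabolism.

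Both mature strands are shown because they differ in their seeds, so that a change in either concerns different targets. The sequences are RefSeq entries of the rat genome build GRCr8, with bases 2 to 8, the seed, in capitals. RefSeq names them by arm, and the match of the array's older names to them rests on nomenclature, since the array files hold no probe sequence.
rno-miR-378 (RefSeq rno-miR-378a-3p): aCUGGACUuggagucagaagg
rno-miR-378* (RefSeq rno-miR-378a-5p): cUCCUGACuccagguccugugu
The main strand has 21 bases and lies at chr18:57128925-57128945 on the minus strand, and the star strand has 22 bases and lies at chr18:57128962-57128983, with 16 bases of loop between them. Both sit inside Ppargc1b (chr18:57029264-57131466, the same strand), 2483 bases after the start of the gene. The longest run of uninterrupted A-U and G-C pairing between the strands covers 9 bases, with G-U pairs not counted. Neither seed is shared by any of the other 691 mature rat sequences in the table.

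miR-378 was detected on all 26 arrays and miR-378* on 25. The exception was m5m, an array of 1/3 PH at 12 hours, which was dim throughout, with 91 miRNAs detected against 118 to 155 on the others. No spot of either arm was saturated. Levels are log2 signals after each array was scaled to the 75th percentile of 109 probes well above background on every array, so that 1 unit is a doubling. Each array sampled 1 animal, so that the number of arrays limits the precision.

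miR-378 was high in normal livers and 6 hours after either operation, and lower at 12, 24 and 36 hours. In the normal livers its log2 level was 7.50, 7.49 and 7.24, a mean of 7.41 ± 0.15 (SD, n = 3). At 6 hours it was 7.25 and 7.65 on the 1/3 PH arrays. The 2/3 PH arrays gave 7.66, 7.68 and 7.64 at that time, a mean of 7.66 ± 0.02 (SD, n = 3). These 3 arrays were all above the normal livers, by 0.25 on average with a standard error of 0.25 from the spread pooled over the 9 groups, and 6.94% of the 144 miRNAs tested were likewise higher on every array in that comparison.

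At 12 hours the 1/3 PH livers gave 6.40, 6.77 and 6.36 (mean 6.51 ± 0.23, SD, n = 3). The 2/3 PH livers gave 7.03, 6.25 and 6.71 (mean 6.66 ± 0.39, SD, n = 3). All 6 arrays were below the lowest normal liver, and below the lowest 6 hour array of the same operation. The log2 difference from normal was -0.90 after 1/3 PH and -0.75 after 2/3 PH, with a standard error of 0.25 for each. With normexp background correction these were -0.087 and -0.31, and without scaling the 1/3 PH value was -1.65. Against normal livers, 9.72% of the miRNAs tested were lower on every array after 1/3 PH and 16.0% after 2/3 PH. On m5m the floor, set by the dimmest probe well above background, was 25.6 in scaled signal, the highest of all arrays. Dim miRNAs were held up to it there, which can lower the shares for 1/3 PH at 12 hours. From 6 to 12 hours after 1/3 PH the log2 difference was -0.94, and 9.03% of the miRNAs tested were lower on every array. The same share, 9.03%, was lower on every array from 6 to 12 hours after 2/3 PH, where miR-378 went from a mean of 7.66 to 6.66, rank 1 from the lowest among the 144 differences, and miR-378* had rank 2.

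At 24 hours the values were 6.54, 6.53 and 6.63 after 1/3 PH (mean 6.56 ± 0.05, SD, n = 3). They were 6.79, 6.76 and 6.47 after 2/3 PH (mean 6.67 ± 0.17, SD, n = 3). Both operations again left every array below every normal liver, which held for 7.64% of the miRNAs tested after 1/3 PH and for 13.2% after 2/3 PH. Expressed as a fold, normal livers were 1.80-fold above 1/3 PH and 1.67-fold above 2/3 PH.

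At 36 hours the 1/3 PH arrays were split. Array m45B was at 6.10, the lowest value of the series, while m46 and m47 were at 7.28 and 7.29, within the range of the normal livers. The mean difference of 1/3 PH from normal livers was -0.52 with m45B and -0.13 without it. After 2/3 PH all 3 arrays stayed low, at 6.40, 6.55 and 6.64 (mean 6.53 ± 0.12, SD, n = 3), as did 17.4% of the miRNAs tested on every array against normal livers. The 2/3 PH group was 1.84-fold below normal livers, a log2 difference of -0.88 that was 0.0055 after normexp background correction with an offset. The mean difference between the operations at 36 hours was -0.36 with a standard error of 0.25, it became -0.76 without m45B, -0.17 without m46 and -0.16 without m47, and it turned to 0.13 when arrays were scaled over all probes and to 0.21 with normexp.

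**Figure D1:**
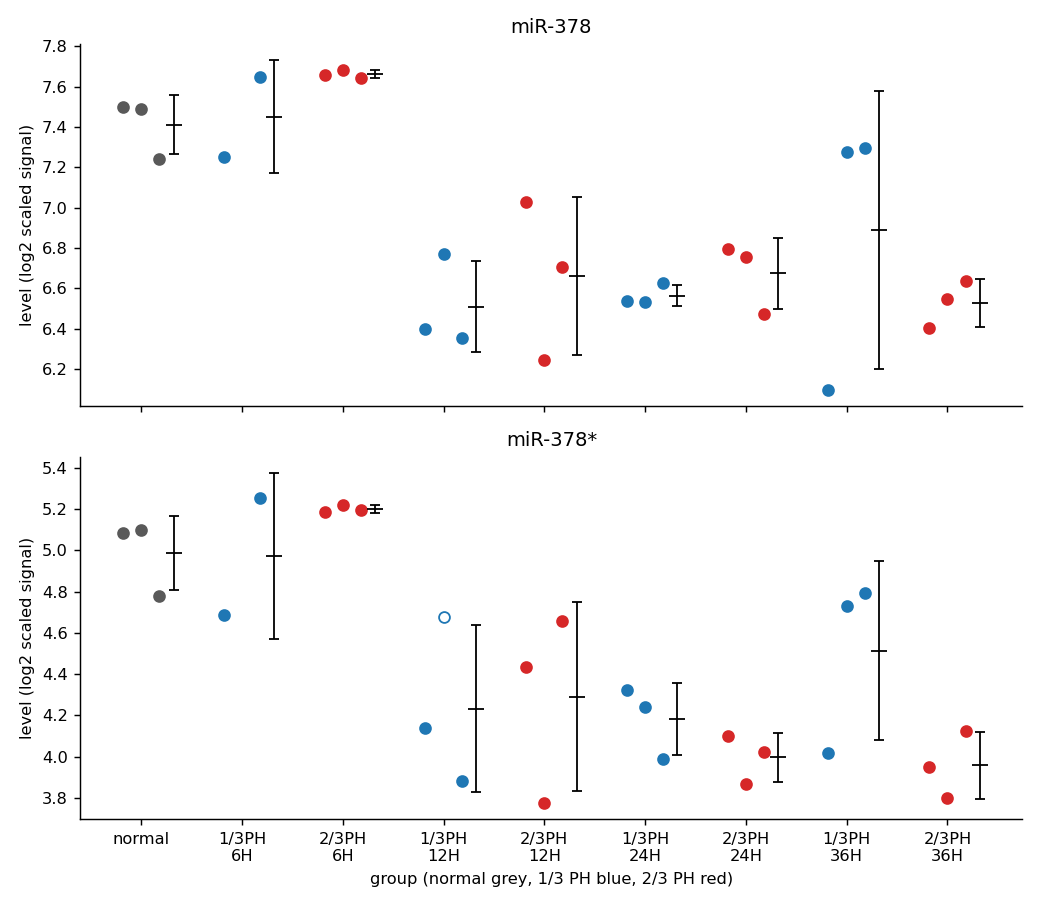
Log2 level of miR-378 (upper panel) and miR-378* (lower panel) on each array, by group, with the group mean and SD beside the points; the open circle is m5m, where miR-378* was not detected and stands at the detection floor. Of the 18 arrays from 12 to 36 hours, 16 lay below the lowest normal liver for miR-378 and 17 for miR-378*. The same count was not made over all miRNAs tested, and the text gives shares by group. Of 1/3 PH at 36 hours, 2 arrays stood at the upper level.

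Ordered by mean level, miR-378 ran from 2/3 PH at 6 hours through 1/3 PH at 6 hours and normal livers to 1/3 PH at 36 hours, and then through 2/3 PH at 24 and 12 hours, 1/3 PH at 24 hours and 2/3 PH at 36 hours to 1/3 PH at 12 hours. Neighbours in this order differed by less than the pooled SD of 0.30, except for the step from normal livers to 1/3 PH at 36 hours, -0.52, which was within the SD of 0.69 of the latter group. The 5 lowest groups could not be ordered among themselves.

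The star strand traced the same course at a signal close to the background. Normal livers gave log2 levels of 5.08, 5.10 and 4.78 (mean 4.99 ± 0.18, SD, n = 3). At 6 hours it stood at 4.69 and 5.26 after 1/3 PH and at 5.18, 5.22 and 5.20 after 2/3 PH. The 2/3 PH arrays at 6 hours were above all normal livers for this arm too, by 0.21 on average, although the difference was -0.02 with the software's own total gene signal.

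At 12 hours miR-378* was at 4.14 and 3.88 on 2 arrays of 1/3 PH, and on m5m it was held at the floor of 4.68. The 2/3 PH livers were at 4.44, 3.78 and 4.66. Neither probe of this arm was well above background on any array of 1/3 PH at 12 hours, so single probes give only a bound for that group. The summed signal was detected on 2 of its arrays and stood above their floors. By A_26_P00002165, the probe of this arm that was well above background in all 3 normal livers, normal livers were at least 1.36-fold higher, with means of 4.41 in normal livers and 3.97 at the floor in 1/3 PH livers. The summed level of that group was 4.23 with the floor and 3.86 without it. Without m5m the log2 difference of 1/3 PH from normal livers at 12 hours was -0.98 for miR-378*, against -0.75 with it, and -1.03 for miR-378. The 24 hour levels of 1/3 PH were 4.32, 4.24 and 3.99. Those of 2/3 PH stood at 4.10, 3.87 and 4.03. At 36 hours they were 4.02, 4.73 and 4.79 after 1/3 PH, where m45B was again the low array. After 2/3 PH they were 3.95, 3.80 and 4.13.

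The mean log2 difference of miR-378* from normal livers was -0.80 at 24 hours and -0.47 at 36 hours for 1/3 PH, and -0.99 and -1.03 for 2/3 PH, each with a standard error of 0.24. Without m45B the 36 hour value of 1/3 PH was -0.22. Every array of 2/3 PH at 12, 24 and 36 hours and of 1/3 PH at 12 and 24 hours was below every normal liver, as for the main strand. Directions for this dim strand depended on the background correction: with normexp the difference from normal livers was 0.50 for 1/3 PH and 0.05 for 2/3 PH at 12 hours, and 0.53 for 2/3 PH at 36 hours. Between the operations at 36 hours miR-378* differed by -0.56 with a standard error of 0.24, and by 0.54 with normexp.

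Each strand was read by 2 probes of 10 spots each. The probes of miR-378 were well above background on all 26 arrays and ran together, with a Pearson r of 0.989 across arrays. From 12 to 36 hours their group means lay between -0.94 and -0.51 of normal livers for A_26_P00001732, and between -0.88 and -0.53 for A_26_P00001733. The probes of miR-378* did not run together in that way, with an r of 0.547. A_26_P00002165 was well above background on 17 arrays, and its group means lay between -0.96 and -0.42 of normal livers. A_26_P00002164 was well above background on 3 arrays and at or under the floor on 23, so its group differences, -0.07 to 0.56, reflect the floor of each array and give no order. The levels of miR-378* given here sum both probes. With A_26_P00002165 alone, the difference from normal livers was -0.44 for 1/3 PH at 12 hours, against -0.75, and -0.66 for 2/3 PH at 24 hours, against -0.99. That probe was well above background on 0 and 1 arrays of these 2 groups. Both of its values were held up by the floor, so they are bounds.

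The arms moved together. Across the 26 arrays the Pearson r of their log2 levels was 0.923, it was 0.955 before scaling and 0.932 without m5m, and the deviations from the group means had an r of 0.794. Both values of a point came from 1 array and shared its labelling and scaling, so these are given as a description.

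The arm difference is the log2 level of miR-378 minus that of miR-378*. Its size compares different probes and is no ratio of molecules, so only its movement between arrays is described. The arm difference was 2.42, 2.39 and 2.46 in normal livers (mean 2.42 ± 0.04, SD, n = 3) and 2.47, 2.46 and 2.45 in the 2/3 PH livers at 6 hours. Over all 26 arrays it ran from 2.05 to 2.89 with an SD of 0.20, while the levels of the arms had SDs of 0.50 and 0.50. The lowest values were 2.05 on m12B, 2.08 on m45B and 2.09 on m5m, the last with the star strand at the floor, and the highest was on m29B. Without m5m the SD was 0.19.

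After 2/3 PH the arm difference was 2.70, 2.89 and 2.45 at 24 hours, and 2.45, 2.75 and 2.51 at 36 hours. After 1/3 PH it was 2.21, 2.29 and 2.64 at 24 hours, and 2.08, 2.55 and 2.50 at 36 hours. The groups overlapped at both times. The mean shift between the operations was 0.30 at 24 hours and 0.20 at 36 hours, with a standard error of 0.16 for each. The operations shared no slide at either time, so the shift also holds any difference between slides. It was 0.05 at 24 hours and -0.33 at 36 hours with normexp, and 0.04 at 24 hours when only the brightest probe of each arm was used. Against normal livers the shift after 2/3 PH was 0.25 at 24 hours and 0.15 at 36 hours. At 24 hours it was -0.25 with normexp and -0.08 with the brightest probe. The brightest probe of miR-378* was well above background on only 1 array of 2/3 PH at 24 hours, so the floor enters these values.

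**Figure D2:**
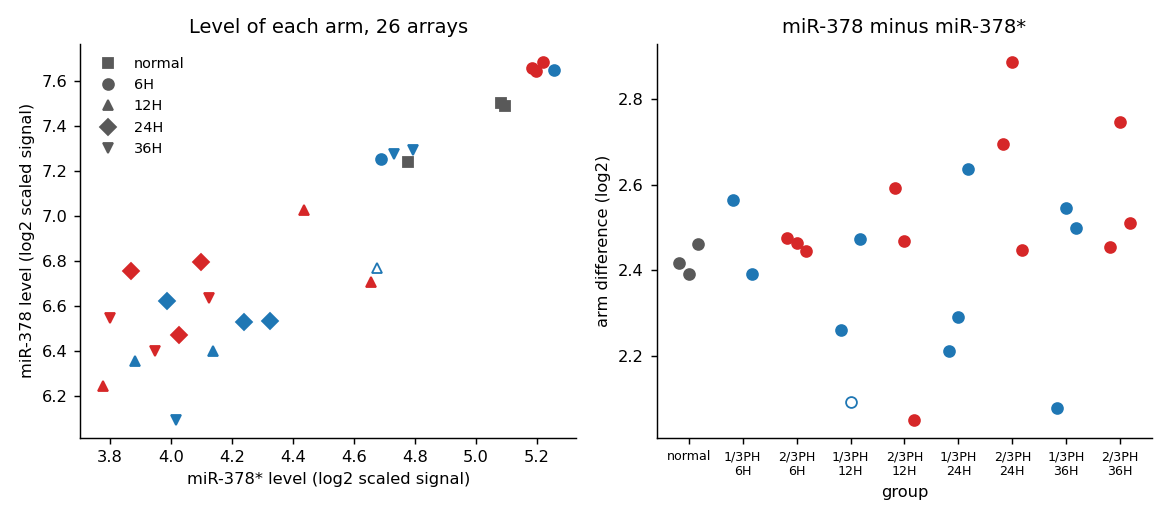
Left, log2 level of miR-378 against that of miR-378* on each of the 26 arrays, with symbols for the time and colours for the operation (grey normal, blue 1/3 PH, red 2/3 PH); right, the log2 arm difference by group. The open symbol is m5m. The points of the left panel lie along 1 line (r of 0.923), and the arm difference stays between 2.05 and 2.89.

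The array held 259 pairs of arms. As a description, miR-378 is set beside the pairs with both arms detected on every array. It did not meet that rule itself, since miR-378* stood at the floor on m5m, while 5 other pairs did. Their arm differences had larger SDs than the 0.20 of miR-378: 0.23 for miR-140, 0.26 for miR-122, the dominant miRNA of hepatocytes, 0.40 for miR-30a, 0.45 for miR-30e and 0.51 for miR-652. The correlation between arms was also lower in these pairs, 0.645 for miR-140 and 0.266 for miR-652, and 0.068, -0.546 and -0.120 for miR-122, miR-30a and miR-30e. The strands named without a star of miR-122, miR-30a, miR-140, miR-30e and miR-652 had SDs of 0.13, 0.16, 0.20, 0.24 and 0.48, against 0.50 for miR-378. Their star strands had SDs of 0.23, 0.29, 0.31, 0.35 and 0.35, against 0.50 for miR-378*. The signal of miR-652 was below that of miR-652* on every array.

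The place of both arms among all miRNAs is shown by ranks, as a description. Counted from the lowest of 144 differences from normal livers, miR-378 ranked 3, 4 and 3 at 12, 24 and 36 hours of 1/3 PH, and 6, 8 and 6 at the same times of 2/3 PH. miR-378* ranked 5, 5 and 5, and 7, 5 and 4, respectively. At 6 hours neither arm stood at that end, since miR-378 ranked 69 and 110 and miR-378* 59 and 104. The median difference of all miRNAs lay between 0.01 and 0.10 in these 8 comparisons. For 1/3 PH at 12 hours the high floor of m5m held up dim miRNAs, which bears on the ranks there. The floor also bears on the other groups, since only 82 of the 144 miRNAs were detected on every array. A miRNA near the floor in normal livers could fall little. This can place both arms nearer the lower end and lower the shares given above.

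**Figure D3:**
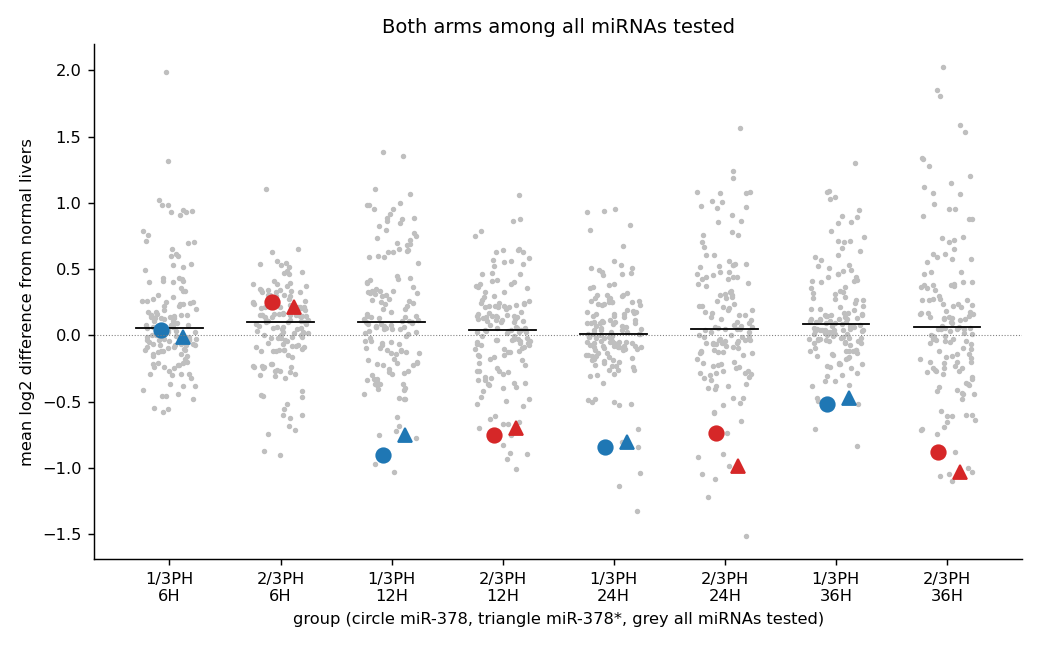
Mean log2 difference from normal livers for each of the 144 miRNAs tested (grey dots, black line the median) in each operated group, with miR-378 as a circle and miR-378* as a triangle. At 6 hours both arms lie among the other miRNAs, and from 12 hours on both lie near the lower end, at ranks 3 to 8.

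Arrays were printed on 6 slides and scanned on 3 days, and groups were not spread evenly over them. Within slides, 6 arrays from 12 to 36 hours shared a slide with a normal liver, and all 6 were lower than it for both arms. Their log2 differences for miR-378 ran from -1.10 to -0.69 with a median of -0.81. For miR-378* they ran from -1.11 to -0.42 with a median of -0.89, and the value of -0.42 is that of m5m at the floor, so a bound; the next was -0.44 on m12B. Of the 5 arrays at 6 hours, 4 were above the normal liver of their slide for both arms, and m62 was below it, at -0.25 for miR-378. Within scan days all 18 arrays from 12 to 36 hours were below the normal liver of that day. The differences were -1.40 to -0.21 for miR-378 and -1.31 to -0.29 for miR-378*. For miR-378 the normal liver of day 1, m79, was the highest of the normal livers. Arrays m46 and m47, at -0.22 and -0.21 against it, lay within the range of the normal livers. The share of all miRNAs below the normal liver of their slide or day was not counted. All arrays of 2/3 PH at 24 hours and of 1/3 PH at 36 hours lay on a slide without a normal liver. At 24 hours no 1/3 PH array shared a slide with a 2/3 PH array, and at 36 hours none shared a slide or scan day. Differences between the operations therefore also hold any difference between slides at both times, and between days at 36 hours.

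**Figure D4:**
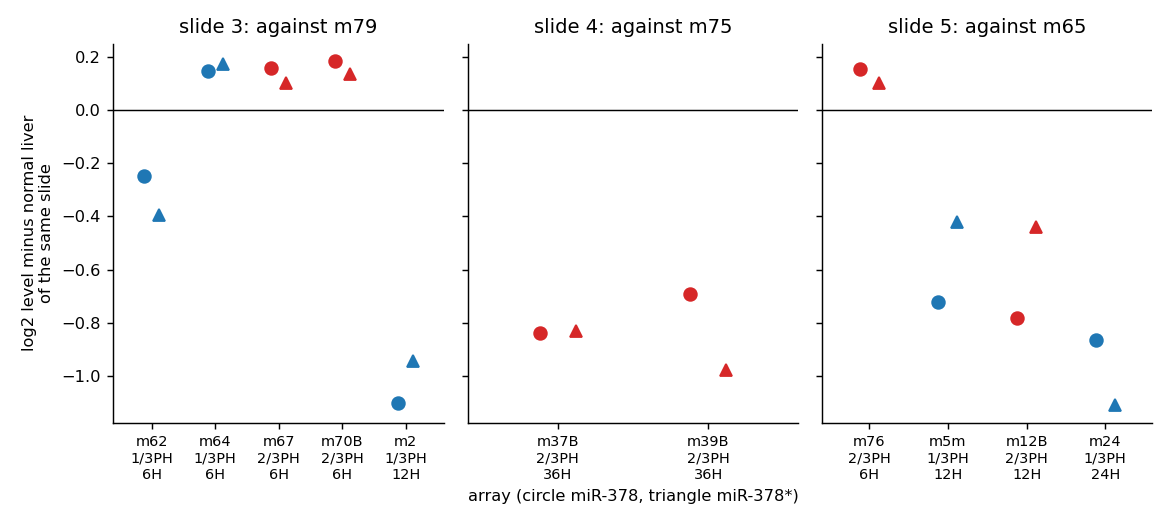
Log2 level of miR-378 (circles) and miR-378* (triangles) on each operated array minus that of the normal liver on the same slide, for the 3 slides that held one (blue 1/3 PH, red 2/3 PH); the triangle of m5m stands at the floor. All 6 arrays from 12 to 36 hours lie below 0 for both arms, and 4 of 5 arrays at 6 hours lie above it.

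The miRNAs whose level across the 26 arrays was most like that of each arm were the same 3 for both arms. Closest was miR-151, with an r of 0.917 to miR-378 and 0.891 to miR-378*, and of 0.954 and 0.990 over the 9 group means. It was detected on all 26 arrays, and its log2 differences from normal livers were -0.47, -0.49 and -0.24 at 12, 24 and 36 hours of 1/3 PH, and -0.52, -0.65 and -0.70 at the same times of 2/3 PH. miR-338 followed with 0.673 and 0.718, but it was detected on only 9 arrays and otherwise sat at the floor. miR-10a-5p, detected on all 26, had an r of 0.623 and 0.696, and its difference from normal after 2/3 PH was -0.15, -0.40 and -0.60 at 12, 24 and 36 hours. Over the other 142 miRNAs the median r was -0.03 to miR-378 and -0.01 to miR-378*.

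**Figure D5:**
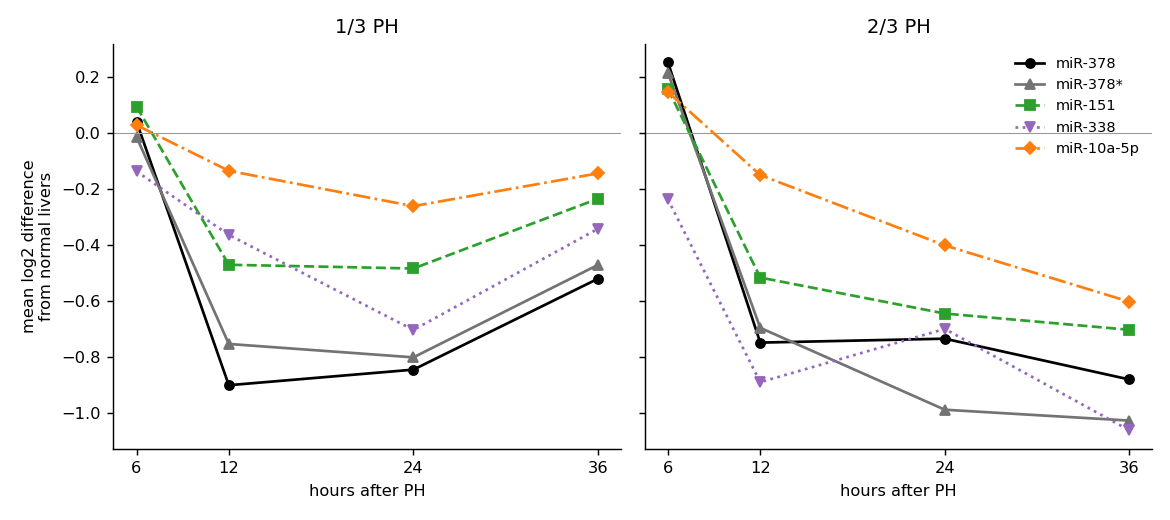
Mean log2 difference from normal livers against hours after 1/3 PH (left) and 2/3 PH (right) for both arms of miR-378 and for the 3 miRNAs most like them. At 36 hours miR-378, miR-378* and miR-151 stand at -0.52, -0.47 and -0.24 after 1/3 PH and at -0.88, -1.03 and -0.70 after 2/3 PH.

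The same comparisons were made for miRNAs known from lipid and glucose metabolism, a list of 19 of which 14 could be tested. Neither miR-378 arm was on it, and it was chosen with earlier results of these data known. In limma fits over the 144 miRNAs, 1 of the 14 rose and 1 fell in 2/3 PH livers against normal livers at 24 hours and again at 36 hours, where 18.1% and 18.8% of all miRNAs passed. The riser was miR-34a, a p53 target that represses the deacetylase SIRT1, with a log2 change of 1.24 (SE 0.22, adjusted p = 0.00100) at 24 hours and 1.85 (SE 0.22, adjusted p = 2e-06) at 36 hours. The one that fell was miR-26a, known for regulating insulin signalling in liver, at -0.47 (SE 0.11, adjusted p = 0.0106) and -0.64 (SE 0.11, adjusted p = 0.000402).

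Between the operations at 36 hours miR-34a was higher after the larger resection in limma, by 1.15 (SE 0.22, adjusted p = 0.00173). There miR-26a was lower, at -0.55 (SE 0.11, adjusted p = 0.00333), and 15.3% of all miRNAs passed. These groups shared no slide and no scan day, so such differences also hold any difference between slides and days. At 24 hours none of the 14 passed in limma, against 1 at an unadjusted p under 0.05 (miR-26a, -0.34), and 2.78% of all miRNAs passed. The groups compared at 24 hours shared no slide either. The other 12 passed in no comparison. Their log2 differences from normal livers after 2/3 PH ran from -0.24 for miR-223 to 0.33 for miR-27a at 24 hours, and from -0.32 for miR-29c to 0.28 for miR-335 at 36 hours. The median over the 14 was -0.04 at 24 hours and -0.01 at 36 hours, beside 0.05 and 0.06 over all 144. Without scaling, none of the 14 passed in any of the 4 limma comparisons, with 0 or 1 at an unadjusted p under 0.05 in each.

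The tissue matched its label, since the hepatocyte miRNAs miR-122, miR-192 and miR-194 were detected on all 26 arrays. Their summed scaled signal of 34310 to 47510 overlapped between all groups and normal livers. That sum is mostly miR-122, at 39330 in normal livers beside 1545 for miR-192 and 303 for miR-194. At 12 hours miR-192 was lower, 1166 after 1/3 PH and 1225 after 2/3 PH, while miR-194 was 313 and 315. Both muscle and pancreas miRNAs were below detection on every array, 6 of 6 and 3 of 3, and muscle is a tissue known to be rich in miR-378. Of 4 leukocyte miRNAs on the array 3 were detected, with sums of 147 to 185 in normal livers and 91.1 to 121 in 2/3 PH livers at 24 hours, the lowest group. Of the red cell miRNAs, miR-144 was detected on only 1 array, so their sums mostly reflect miR-451. The red cell miRNAs summed to 99.6 to 115 in normal livers, 49.7 to 65.6 in 2/3 PH livers at 6 hours and 134 to 330.2 in 1/3 PH livers at 24 hours. Their part in the levels of miR-378 was not tested. In whole liver, fewer cells of a type and less of a miRNA per cell cannot be told apart.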

How the data were processed

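Right liver lobes of 26 rats were each hybridised to a 1-colour Agilent rat miRNA array. The authors' deposited scanner files hold signal intensity per spot, background-subtracted by Agilent Feature Extraction 10.7.3.1. The deposited value table holds log2 values processed by the authors, in 699 rows of which 677 are miRNAs; it was used as an alternative. Here spots flagged as outliers were left out, spots of a probe averaged and the probes of a miRNA summed. Arrays were scaled by the 75th percentile of 109 probes well above background (over 50% of spots) on every array, values under the dimmest such probe of an array were set to it, and log2 was taken. Of the 677, 144 were tested: those detected throughout any 1 group. limma 3.58.1 in R 4.3.3 was fitted to all 9 groups (residual df 17), with Benjamini-Hochberg adjustment and a threshold of 0.05, for 4 comparisons. It was tested on simulated data. The members, the list, the markers and the tests were chosen with earlier results of these data known. Both arms, the tested list members, the 3 miRNAs most correlated with each arm, the arm pairs detected throughout and the markers are named. Of the list, miR-33, miR-370, miR-185 and miR-802 did not pass the detection rule, and miR-148a was not found on the array under that name. The p-values rest on the spread between arrays within groups, each of 1 rat. They do not cover a slide or scan-day shift shared by a whole group. Python 3.11.15 with numpy 2.4.6, pandas 2.3.3 and matplotlib 3.10.9 was used. Alternatives varied scaling, background, floor, probe summary, filter, batch terms and arrays.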

Additional observations from a re-analysis of the deposited data

How the results depend on the processing

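Leaving out 1 array of the groups compared kept the direction of both arms and of the arm difference in the 4 comparisons below. The differences of 2/3 PH from 1/3 PH and from normal livers then ran, for miR-378, from 0.05 to 0.21 and from -0.82 to -0.64 at 24 hours, and from -0.76 to -0.16 and from -0.97 to -0.82 at 36 hours. For miR-378* they ran from -0.29 to -0.12 and from -1.09 to -0.92, and from -0.80 to -0.42 and from -1.13 to -0.95. For the arm difference they ran from 0.19 to 0.43 and from 0.15 to 0.37, and from 0.05 to 0.28 and from 0.06 to 0.21. The low array m45B set the value of -0.76.

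Scaling over all probes moved the median of all miRNAs between the operations to -0.42 at 24 hours and 0.36 at 36 hours, from 0.01 and -0.12. With it miR-378 between the operations was -0.32 at 24 hours and 0.13 at 36 hours, miR-378* was -0.62 and -0.0705, and the differences from normal livers at 24 hours were -1.20 and -1.45. Normexp adds 50 units to each probe before scaling, more than the whole signal of miR-378*, and it moved the median of all miRNAs at 36 hours to 0.51 between the operations and 0.63 from normal livers. With it miR-378 at 36 hours was 0.21 between the operations and 0.0055 from normal livers, and -0.35 from normal livers at 24 hours. miR-378* was 0.54 between the operations and 0.53 from normal livers at 36 hours, -0.10 from normal livers at 24 hours, and 0.50 (1/3 PH) and 0.046 (2/3 PH) at 12 hours. The arm difference was 0.045 and -0.33 between the operations at 24 and 36 hours, and -0.25 and -0.52 from normal livers.

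The software's total gene signal put miR-378* at -1.45 and -1.57 from normal livers at 24 and 36 hours, and the arm difference at 0.68 and 0.66. With the brightest probe miR-378* was -0.66 from normal livers at 24 hours, a value held up by the floor. The arm difference was then -0.079 from normal livers and 0.035 between the operations. Quantile normalization gave an arm difference of 0.53 from normal livers at 24 hours. In the deposited log2 values miR-378* was -0.73 and -1.72 between the operations and -2.18 and -2.91 from normal livers, and the arm difference was 0.95 and 1.29, and 1.65 and 1.97; the cause was not tested.

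Calls over all miRNAs in limma were 4, 22, 26 and 27 (24 and 36 hours between the operations, then from normal livers). They were 0, 0, 0 and 1 without scaling (3, 8, 13 and 16 at an unadjusted p under 0.05), 0, 5, 0 and 0 with scaling over all probes (1, 21, 13 and 15 unadjusted), 0, 1, 0 and 3 with normexp (4, 12, 7 and 26 unadjusted) and 0, 10, 12 and 15 with the deposited values (12, 24, 27 and 37 unadjusted). Between the operations at 24 hours they were 1 with the total gene signal, the brightest probe, scan day as a block, the first scan day, slide as a random block or detection on every array, 2 with a floor of 1 unit, and 0 when only those groups were fitted (13 unadjusted). At 36 hours they were 13 with scan day as a block and 9 with slide as a random block. From normal livers at 24 hours they were 15 with quantile normalization, 12 on the first scan day, 16 with slide as a random block and 15 when only those groups were fitted, and at 36 hours 12 with slide as a fixed block. Without 1 array they ran from 1 to 9, 7 to 22, 9 to 32 and 21 to 35. Between the operations they were 9 without m5m, 7 without m3, 1 without m23, m24 or m26 and 2 without m29B at 24 hours, and 11 without m46, 8 without m47 and 7 without m37B at 36 hours. From normal livers at 24 hours they were 14 without m75, 9 without m26, 15 without m29B and 11 without m31B.

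In the metabolic list the calls were 0, 2, 2 and 2. They were 0 throughout without scaling (0, 1, 1 and 1 unadjusted), 0, 1, 0 and 0 with scaling over all probes (from normal livers 0 and 1 unadjusted), and 0 from normal livers at 24 hours and between the operations at 36 hours with normexp (2 and 3 unadjusted). Between the operations they were 1 at 24 hours with quantile normalization and 1 at 36 hours with scan day as a block, and from normal livers at 24 hours 1 on the first scan day. Without 1 array they ran from 0 to 1 (1 without m5m), 2 to 2, 2 to 3 and 2 to 2. A fixed block for slide could not be fitted for 2/3 PH at 24 hours or between the operations, and no 2/3 PH array at 36 hours was scanned on the first day. No paired analysis was possible because the labels give the groups no shared replicate numbers.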
